A study of Mus musculus with 16 samples.

Results

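Mitochondria are continuously joined and divided, and damaged ones are removed by selective autophagy. The 10 genes described here encode core proteins of these processes: the fusion GTPases of the outer membrane *Mfn1* and *Mfn2* and of the inner membrane *Opa1*, the fission GTPase *Dnm1l* (Drp1) with its outer-membrane partners *Fis1* and *Mff*, and the mitophagy proteins *Pink1*, *Bnip3*, *Bnip3l* and *Fundc1*. They were taken by name as a list, with earlier results of these data known, and make up 10 of the 39179 genes in the count table. All 10 were matched to a single Ensembl identifier, and all 10 passed the filter on low counts in every comparison.

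RNA was sequenced from brain tissue of 16 mice in 4 groups of 4, described as cortex in the methods of the study. The groups were wild-type mice at 3 months (3m WT), V338Y mice at 3 months (3m V338Y), wild-type mice at 19 months (19m WT) and V338Y mice at 19 months (19m V338Y). V338Y mice are homozygous for a knock-in allele that replaces a valine by a tyrosine in *Mrps5*, which is part of the small mitoribosomal subunit, and the substitution lowers the accuracy of mitochondrial translation. All groups share the C57BL/6 background, no treatment is given for any group, the allele is a germline knock-in that is not limited to one cell type, and the number of founder lines is not given in the sources used here. The labels give brain as the tissue but speak of muscle in the extraction protocol, whereas the methods of the study describe cortex from female mice.

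In neurons mitochondria travel far from the cell body, and fusion and fission set the size of the organelles that can be moved and mixed. Fusion merges the outer membranes through mitofusins and the inner membranes through *Opa1*, while fission needs *Dnm1l* to be recruited from the cytosol by receptors such as *Mff*. For removal, *Pink1* accumulates on depolarized mitochondria and marks them for removal, whereas *Bnip3*, *Bnip3l* (Nix) and *Fundc1* sit in the outer membrane and bind the autophagosome directly, and *Bnip3* and *Bnip3l* are known as genes induced by low oxygen.

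Total counts were between 6181448 and 19601664 per mouse, and the 10 genes together received between 9118 and 33828 counts. *Mrps5* was at 39.5, 39.7, 29.8 and 30.2 CPM (counts relative to the scaled library size) in the order of groups above; counts per gene cannot show the substitution itself. Neuron markers summed to between 5408 and 6247 CPM in every mouse, and cortical excitatory neuron markers to between 192.6 and 257.8 CPM. The 4 chromosome Y markers summed to between 243.8 and 288.3 CPM in all 8 mice of 3 months and were at 0 in all 8 mice of 19 months, while *Xist* was at 1.23 CPM or less at 3 months and at 714.7 CPM or more at 19 months, which goes against the methods, where all mice are female. Cerebellum markers summed to between 630.1 and 1442 CPM in 7 of the mice of 3 months, which goes against the methods, where cortex was split from cerebellum. In the remaining mouse of 3 months (3m V338Y mouse 14) they summed to 209.6 CPM, and at 19 months to between 151.3 and 178.1 CPM. Counts and calls that rest on the 3m V338Y group are therefore also given without mouse 14.

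By position in GRCm38, *Mfn1* lies at chr3:32529465-32579239, *Mfn2* at chr4:147873599-147904704, *Opa1* at chr16:29579334-29654884, *Dnm1l* at chr16:16312230-16358959, *Fis1* at chr5:136953275-136966234, *Mff* at chr1:82724890-82752394, *Pink1* at chr4:138313409-138326307, *Bnip3* at chr7:138890836-138909519, *Bnip3l* at chr14:66985239-67008877 and *Fundc1* at chrX:17556564-17572325. All 10 are annotated as protein-coding. Exons of *Mff* overlap an antisense transcript in the count table by 195 bases, and those of *Pink1* overlap annotated microRNAs on the same strand by 69 and 110 bases. *Bnip3* and *Bnip3l* have processed copies elsewhere in the genome; the copies in the count table, *Gm16439* and *Bnip3l-ps*, had at most 2 and 5 counts, against at least 327 and 497 for *Bnip3* and *Bnip3l*. *Mfn1* transcripts hold a stretch that is at least 95% identical, over one read length or more, to transcripts of 30 other genes, in the same direction for 8 of them. Whether the counting used strand is not given in the sources used here, so how many of these genes could share reads with *Mfn1* is not known.

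Promoter windows from RefSeq (GRCm38.p6, 250 bases before to 50 bases after a transcript start) were given for 9 of the 10 genes, 14 windows in all. Those of *Mff* and *Bnip3* are shown as a fission and a mitophagy gene that were lower at 19 months in both genotypes, and that of *Pink1* as the gene that was higher. That of *Opa1* is shown because it held the only NRF1 core among the 14. Capitals mark matches, on either strand, to the hypoxia response core ACGTG or GCGTG, to the E-box CACGTG, to the ERR element AAGGTCA or to the NRF1 core GCATGCGC.
*Mff*, chr1:82724640-82724939, plus strand: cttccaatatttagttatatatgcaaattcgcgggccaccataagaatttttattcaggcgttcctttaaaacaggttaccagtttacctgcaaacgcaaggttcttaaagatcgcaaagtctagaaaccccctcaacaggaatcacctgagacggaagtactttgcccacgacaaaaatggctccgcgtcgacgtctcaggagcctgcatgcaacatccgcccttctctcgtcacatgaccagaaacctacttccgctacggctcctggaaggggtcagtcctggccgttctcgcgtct
*Bnip3*, chr7:138909457-138909756, minus strand: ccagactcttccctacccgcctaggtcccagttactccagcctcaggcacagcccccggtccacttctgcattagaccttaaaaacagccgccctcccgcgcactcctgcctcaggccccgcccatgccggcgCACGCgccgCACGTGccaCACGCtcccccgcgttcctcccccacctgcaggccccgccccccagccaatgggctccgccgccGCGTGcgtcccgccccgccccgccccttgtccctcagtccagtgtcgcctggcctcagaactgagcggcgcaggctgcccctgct
*Pink1*, chr4:138326247-138326546, minus strand: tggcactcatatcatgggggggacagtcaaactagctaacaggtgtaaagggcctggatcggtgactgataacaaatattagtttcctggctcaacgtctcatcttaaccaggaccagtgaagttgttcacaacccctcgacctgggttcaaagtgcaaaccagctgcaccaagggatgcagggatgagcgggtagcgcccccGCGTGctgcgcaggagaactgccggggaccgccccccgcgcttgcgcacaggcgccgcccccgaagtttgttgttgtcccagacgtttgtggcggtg
*Opa1*, chr16:29579084-29579383, plus strand: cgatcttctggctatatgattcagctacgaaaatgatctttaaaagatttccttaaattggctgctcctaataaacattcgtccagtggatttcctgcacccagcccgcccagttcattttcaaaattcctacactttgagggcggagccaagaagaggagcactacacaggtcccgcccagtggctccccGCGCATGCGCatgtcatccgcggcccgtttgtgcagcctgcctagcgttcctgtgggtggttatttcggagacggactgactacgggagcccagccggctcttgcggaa

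The *Bnip3* window held an E-box, which contains the ACGTG form of the hypoxia core on both strands, and 3 further cores of the other form, all before the start. Of all 32851 windows of this length, 7.15% held the E-box, 19.6% the ACGTG form and 32.4% the other form. The latter was also found once in the window of *Pink1*, once in each window of *Dnm1l*, in 1 of the *Fis1* windows and in all 3 windows of *Mfn2*, of which 2 held the ACGTG form too. The *Mfn2* windows overlap and share sites. The E-box and both forms of the core contain the letters CG. The *Bnip3* window held this pair 27 times, against a median of 7 over all windows, and the shares are not matched for it. The NRF1 core of *Opa1* was read on both strands in overlapping letters, and 2.71% of all windows held one. No window of the 10 genes held the ERR element, which 4.72% of all windows held, and the windows of *Mff*, *Mfn1* and *Fundc1* held none of the motifs. The *Fundc1* window lies inside the gene as annotated, so letters upstream of the annotated start were not searched. These matches are letters in a window and were not tested as binding sites.

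Levels per kilobase of exon separated the genes into a wide range. *Pink1* was by far the most abundant, at 146.6 ± 4.35 CPM per kb in 3m WT (SD, n = 4), 145.8 ± 10.4 in 3m V338Y, 164.4 ± 10.3 in 19m WT and 166.9 ± 7.06 in 19m V338Y, and in each group all 4 mice were above every mouse for every other gene. In 3m WT it was followed by *Fis1* (59.1), *Dnm1l* (51.6), *Mfn2* (39.8), *Bnip3* (35.3), *Opa1* (27.96), *Bnip3l* (24.2), *Mff* (19.7), *Fundc1* (18.1) and *Mfn1* (13.8 CPM per kb). Among neighbours in this order the ranges of *Fis1* and *Dnm1l* and of *Mff* and *Fundc1* overlapped, and the others did not. In 19m WT the order of the lower genes differed: *Opa1* (26.2) stood beside *Bnip3* (25.4), whose ranges overlapped, and *Mfn1* (14.4) beside *Mff* (14.3 CPM per kb), whose ranges also overlapped, with *Fundc1* last at 12.6 CPM per kb. Kilobases are of all annotated exons merged, so a gene of which the tissue uses short transcripts has its level understated.

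**Figure D1:**
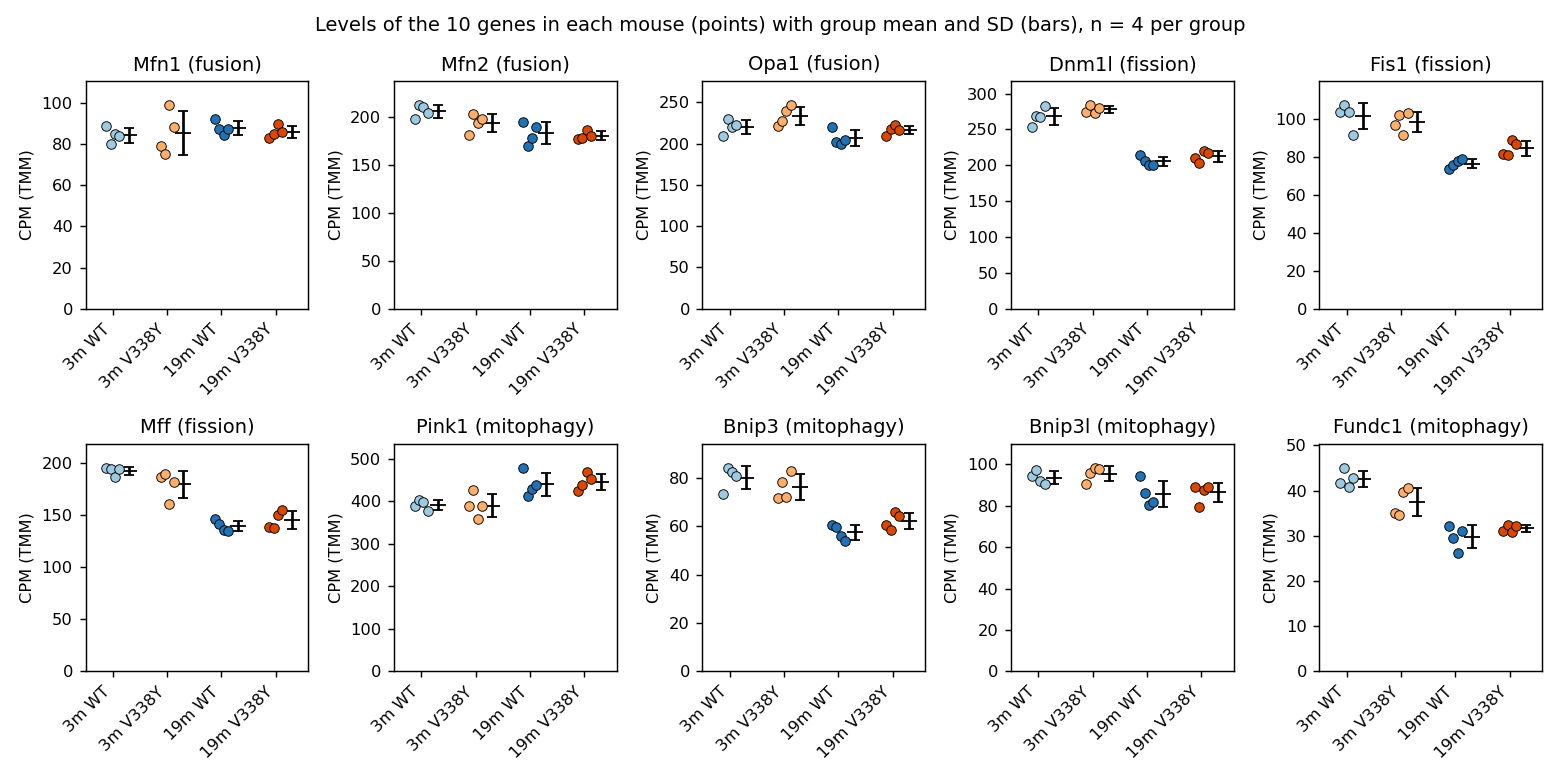
CPM (TMM-scaled, vertical axis from 0) of each gene in each mouse, with the group mean and SD beside the 4 points of a group. *Dnm1l*, *Fis1*, *Mff*, *Bnip3* and *Fundc1* of all 8 mice at 19 months lie below those of all 8 mice at 3 months. How common such a separation with both genotypes pooled is among all genes was not computed, so it does not set these genes apart. *Mfn1* and *Opa1* ranges overlap between ages.

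The first question was how these genes differed between 3 and 19 months in wild-type mice. All 3 fission genes fell, *Pink1* rose, *Bnip3* and *Fundc1* fell, and of the fusion genes *Mfn2* fell slightly while *Mfn1* and *Opa1* did not pass the test. In all, 7 of the 10 genes passed an adjusted p of 0.05 in edgeR's quasi-likelihood test, against 62.8% of all 16101 genes tested; 1 was higher at 19 months (31.4% of all genes) and 6 were lower (31.5% of all genes). The same 7 genes had CPM values in the 4 young and 4 old mice that did not overlap, as had 56% of all genes. The median log2 fold change was -0.24 over the 10 genes and -0.005 over all genes tested. In this comparison 49.9% of the calls over all genes were higher at 19 months, and 39.8% when only library size was scaled.

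Among the fission genes, *Dnm1l*, the GTPase that constricts and divides the organelle, was at 254.1, 268.8, 267.8 and 282.8 CPM in 3m WT mice 9 to 12 and at 214.4, 206.1, 201.0 and 200.3 CPM in 19m WT mice 12 to 15. Every old mouse was below every young mouse, and the gap between the groups was wider than the range of the old group. *Dnm1l* fell by 21.4% (log2 fold change -0.35, SE 0.042, adjusted p = 1.8e-08, n = 4 against 4). *Mff*, the main *Dnm1l* receptor of the outer membrane, was at 194.8, 194.1, 186.1 and 193.5 CPM in the young mice and at 145.7, 141.2, 135.9 and 134.5 CPM in the old. Its SD at 3 months (4.04 CPM) was the smallest of the 3 fission genes, and it fell by 25.4% (log2 fold change -0.42, SE 0.043, adjusted p = 5.15e-10). *Fis1*, a tail-anchored outer-membrane protein first described as a fission receptor, was at 103.7, 107, 103.5 and 91.2 CPM at 3 months and at 73.6, 75.5, 77.6 and 79.0 CPM at 19 months. One young mouse, mouse 12, was lower than the other three but still above all old mice, and *Fis1* fell by 22.8% (log2 fold change -0.37, SE 0.054, adjusted p = 5.29e-07).

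Of the mitophagy genes, *Pink1*, the kinase that marks depolarized mitochondria, was at 388.4, 403.0, 399.0 and 377.1 CPM in the young wild-type mice and at 478.0, 413.4, 427.9 and 438.9 CPM in the old. It was the only one of the 10 that rose, by 15.1% (log2 fold change 0.20, SE 0.043, adjusted p = 0.000123), and the lowest old mouse was 10.4 CPM above the highest young one. *Bnip3*, a hypoxia-inducible receptor that binds LC3, was at 73.1, 84.0, 82.3 and 80.8 CPM at 3 months and at 60.4, 59.8, 56.0 and 53.8 CPM at 19 months. The groups were apart, and it fell by 26.2% (log2 fold change -0.44, SE 0.055, adjusted p = 4.17e-08). *Fundc1*, an X-linked receptor of the outer membrane, was at 41.8, 44.97, 40.7 and 42.8 CPM in the young and at 32.1, 29.6, 26.3 and 31.1 CPM in the old mice. It had the largest fold change of the 10 genes, a fall of 28.4% (log2 fold change -0.48, SE 0.069, adjusted p = 4.66e-07). *Bnip3l*, the close relative of *Bnip3* known for clearing mitochondria from maturing red blood cells, was between 90.5 and 97.3 CPM in young and between 80.4 and 94.3 CPM in old mice, with overlapping groups (log2 fold change -0.08, 95% confidence interval -0.19 to 0.02, adjusted p = 0.168).

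Of the fusion genes 1 of 3 passed. *Mfn2*, which also tethers mitochondria to the endoplasmic reticulum, was at 198.1, 212.5, 211.1 and 204.3 CPM in young and at 195.4, 170.5, 178.9 and 190.0 CPM in old wild-type mice. The groups were apart by 2.7 CPM, and *Mfn2* fell by 8.84% (log2 fold change -0.13, SE 0.045, adjusted p = 0.0115); without 19m WT mouse 13 it was not past the threshold (log2 fold change -0.09, adjusted p = 0.107). *Mfn1*, the mitofusin with the stronger tethering activity, was at 84.3 ± 3.63 CPM in 3m WT and 87.8 ± 3.32 CPM in 19m WT (log2 fold change 0.10, 95% confidence interval -0.002 to 0.20, adjusted p = 0.0817). *Opa1*, which also shapes cristae, was at 220.2 ± 8.68 and 206.5 ± 9.49 CPM (log2 fold change -0.06, 95% confidence interval -0.14 to 0.03, adjusted p = 0.264).

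In V338Y mice, the same question gave 6 of 10 genes past the threshold, 1 higher and 5 lower at 19 months, against 48.8%, 23.1% and 25.7% of all 16770 genes tested. The 3 fission genes, *Bnip3* and *Fundc1* fell and *Pink1* rose, as in wild type, whereas *Mfn2* did not pass. In 6 of the 10 genes the groups did not overlap, as in 44.7% of all genes; these were the 5 that fell and *Bnip3l*. The median log2 fold change was -0.17 over the 10 genes and -0.03 over all genes tested.

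*Dnm1l* was at 274.4, 283.5, 273.6 and 280.6 CPM in 3m V338Y mice 13 to 16 and at 210.4, 203.2, 219.4 and 217.4 CPM in 19m V338Y mice 17 to 20. This was the largest change of the 10 genes in this genotype, a fall of 23.1% (log2 fold change -0.38, SE 0.049, adjusted p = 4.44e-05). *Mff* fell by 18.7%, from 186.0, 189.6, 160.7 and 181.9 CPM to 138.0, 137.9, 149.9 and 155.1 CPM (log2 fold change -0.30, SE 0.062, adjusted p = 0.00167). Here 1 young mouse, mouse 15, lay close to the highest old mouse. *Fis1* fell by 13.7%, from 96.8, 101.9, 91.5 and 102.9 CPM to 81.2, 81.0, 88.9 and 86.4 CPM (log2 fold change -0.21, SE 0.056, adjusted p = 0.00726).

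*Bnip3* fell in V338Y mice, from 71.7, 78.2, 72.1 and 82.7 CPM to 60.4, 58.3, 65.8 and 64.1 CPM (log2 fold change -0.29, SE 0.062, adjusted p = 0.00215). *Fundc1* fell by 15.1%, from 35.1, 34.6, 39.8 and 40.7 CPM to 31.1, 32.5, 30.9 and 32.2 CPM (log2 fold change -0.24, SE 0.071, adjusted p = 0.0147). The gap between the *Fundc1* groups was narrow, and without 3m V338Y mouse 16 or without 19m V338Y mouse 19 it did not pass (adjusted p = 0.0554 and 0.0507). *Pink1* rose by 15.1%, from 387.8, 425.5, 357.8 and 387.8 CPM to 425.1, 437.8, 468.9 and 453.2 CPM (log2 fold change 0.20, SE 0.060, adjusted p = 0.0134), and only mouse 14, at 425.5 CPM, reached into the range of the old group. *Bnip3l* was at 95.4 ± 3.48 and 86.3 ± 4.78 CPM and did not pass although its groups were apart (log2 fold change -0.14, 95% confidence interval -0.26 to -0.02, adjusted p = 0.0592). The fusion genes had log2 fold changes of 0.02 for *Mfn1*, -0.10 for *Mfn2* and -0.10 for *Opa1*, with adjusted p of 0.881, 0.152 and 0.137.

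**Figure D2:**
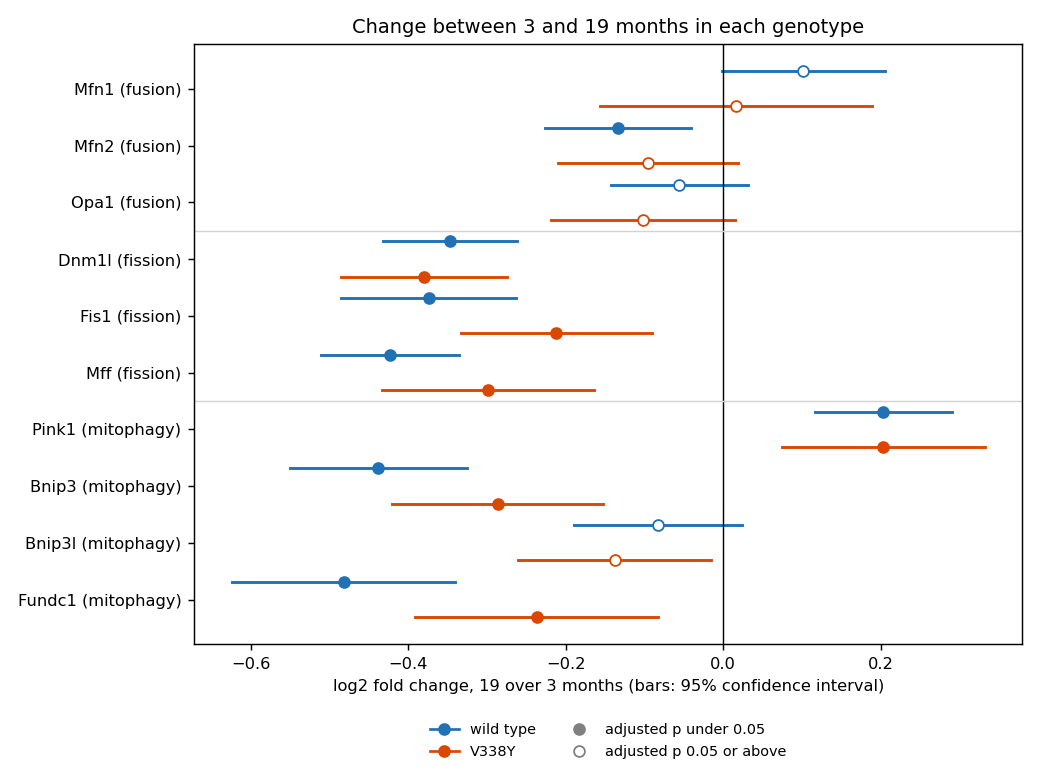
Log2 fold change of each gene between 19 and 3 months (horizontal axis) in wild-type and V338Y mice, with 95% confidence intervals and filled points where the adjusted p was under 0.05. The 3 fission genes, *Bnip3* and *Fundc1* lie left of 0 and *Pink1* right of 0 in both genotypes, and intervals of the genotypes overlap for each gene.

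Markers of other cells and regions differed between the ages as well, beside each of the changes above. All 10 cerebellum markers were lower at 19 months in wild-type and 9 of 10 in V338Y mice. All 6 endothelial markers were higher, their sum going from between 159.6 and 177.3 CPM at 3 months to between 735.5 and 890.1 CPM at 19 months; all 6 microglia, 6 meninges and 5 red blood cell markers, 5 of 6 astrocyte and 4 of 6 oligodendrocyte markers were also higher in both genotypes. Median log2 fold changes were 1.61 in wild-type and 1.23 in V338Y mice for the meninges markers and 1.795 and 1.22 for the red blood cell markers. Of 7 neuron markers 1 was higher and 4 lower in wild-type mice, and 1 and 3 in V338Y mice. The 4 chromosome Y markers were lower and *Xist* higher. Age and the sex markers cannot be told apart in either genotype, nor can age and the cerebellum markers in wild-type mice. In V338Y mice age and the cerebellum markers come apart in mouse 14 alone. The mean log2 CPM of these markers was 2.81 in mouse 14 and between 6.07 and 6.54 in the other 3m V338Y mice. It was between 1.78 and 2.04 in 19m V338Y mice. V338Y results with these markers as a covariate therefore rest on mouse 14. With the mean log2 CPM of the cerebellum markers as a covariate, 0 of the 10 genes and 51 of all genes (0.317%) passed in wild-type mice, and 4 of the 10 genes and 4680 of all genes (27.9%) in V338Y mice. In bulk tissue, fewer cells of a type and less RNA per cell cannot be told apart.

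Mouse 14 of the 3m V338Y group had cerebellum markers near the level of the old mice and chromosome Y markers like the other young mice. Its *Dnm1l* (283.5 CPM), *Mff* (189.6), *Fis1* (101.9), *Bnip3* (78.2) and *Fundc1* (34.6 CPM) were above those of all 8 mice of 19 months, as were its *Mfn2*, *Opa1* and *Bnip3l*. Its *Pink1* (425.5 CPM) lay within the range of the old mice (413.4 to 478.0 CPM), and its *Mfn1* (74.9 CPM) was below that range. The share of all genes for which mouse 14 lay outside the range of the old mice was not computed. These values of a single mouse are therefore not a result about the 10 genes. Without mouse 14, the same 6 genes passed in V338Y mice, with log2 fold changes of -0.36 for *Dnm1l*, -0.26 for *Mff*, -0.18 for *Fis1*, -0.26 for *Bnip3*, -0.26 for *Fundc1* and 0.26 for *Pink1* and a highest adjusted p of 0.0222, against 49.6% of all genes. The groups then did not overlap in 7 of the 10 genes, *Pink1* being the one added, against 52% of all genes.

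**Figure D3:**
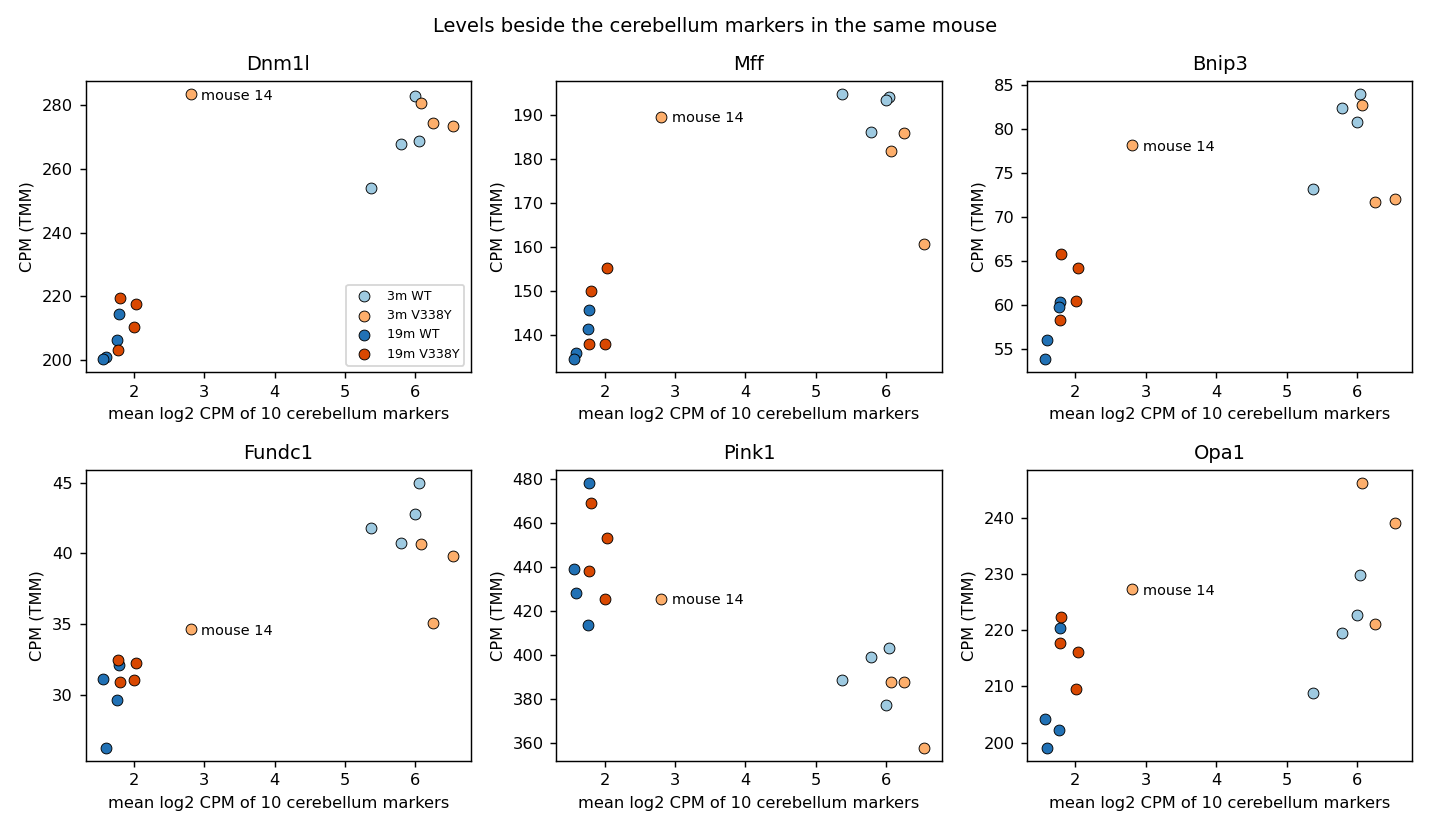
CPM of *Dnm1l*, *Mff*, *Bnip3*, *Fundc1*, *Pink1* and *Opa1* (vertical axes, not from 0) against the mean log2 CPM of 10 cerebellum markers in the same mouse, coloured by group. Mouse 14 stands apart from the other young mice on the horizontal axis, at 2.81, and at the level of the young mice for *Dnm1l* (283.5 CPM), *Mff* (189.6 CPM) and *Bnip3* (78.2 CPM). Its *Opa1* (227.3 CPM) lies within the range of the other 3m V338Y mice. Its *Fundc1* (34.6 CPM) lies below that of every other young mouse. Its *Pink1* (425.5 CPM) lies above that of every other young mouse and within the range of the old mice.

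The genotypes were then compared at each age. At 19 months, 0 of the 10 genes passed in the quasi-likelihood test, in edgeR's likelihood-ratio test and in DESeq2, against 3.12% of all 16420 genes tested. Of these genes over the whole table, 38.3% of the calls were higher in V338Y mice, and 57.6% when only library size was scaled. At an unadjusted p of 0.05, 1 of the 10 passed, against 16.2% of all genes. This was *Fis1*, which was 9.36% higher in 19m V338Y mice. Its 4 values (81.2, 81.0, 88.9 and 86.4 CPM) were all above the 4 of 19m WT (73.6, 75.5, 77.6 and 79.0 CPM), a difference of 0.13 on the log2 scale (95% confidence interval 0.04 to 0.22, adjusted p = 0.134 in edgeR). It was the only 1 of the 10 genes without overlap, against 8.92% of all genes. The other differences were between -0.05 (*Mfn1*) and 0.09 (*Bnip3*), and the confidence intervals of all 10 genes lay between -0.14 and 0.22 on the log2 scale.

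At 3 months, 0 of the 10 genes passed in the quasi-likelihood test, in the likelihood-ratio test and in DESeq2, against 0.0616% of all 16241 genes tested. At an unadjusted p of 0.05 only *Fundc1* passed, against 5.02% of all genes, at 35.1, 34.6, 39.8 and 40.7 CPM in V338Y and 41.8, 44.97, 40.7 and 42.8 CPM in wild-type mice. The highest V338Y and the lowest wild-type mouse differed by less than 0.1 CPM, and the log2 fold change was -0.19 (95% confidence interval -0.34 to -0.03, adjusted p = 0.926 in edgeR). *Fundc1* was the 1 gene of 10 without overlap, against 3.4% of all genes. Without mouse 14 its log2 fold change was -0.15 (adjusted p = 0.532), 0 of the 10 genes passed at either threshold in the quasi-likelihood test, against 9.94% of all genes at an unadjusted p of 0.05, and *Fundc1* and *Mff* were without overlap, against 9.02% of all genes. Intervals were wider than at 19 months, between -0.34 and 0.20 over the 10 genes, and *Mfn1* was the most variable gene in 3m V338Y (79.2, 74.9, 98.7 and 88.4 CPM).

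The difference between the genotypes in the age effect was tested directly in all 16 mice. In this interaction 0 of the 10 genes passed in the quasi-likelihood test, in the likelihood-ratio test and in DESeq2, against 0.0535% of all 16831 genes tested. At an unadjusted p of 0.05, 2 passed, against 10.2% of all genes. The age effect of *Fundc1* was nearer to 0 in V338Y than in wild-type mice, by a log2 difference of 0.26 (95% confidence interval 0.06 to 0.47, adjusted p = 0.377 in edgeR), and that of *Fis1* by 0.18 (95% confidence interval 0.01 to 0.35, adjusted p = 0.458 in edgeR). *Bnip3* and *Mff* had differences of 0.17 (-0.004 to 0.35) and 0.14 (-0.02 to 0.30). For *Dnm1l* and *Pink1* the differences were -0.01 (-0.14 to 0.12) and 0.02 (-0.14 to 0.18), so that differences beyond these bounds lay outside the intervals. The loss of the *Mfn2* call in V338Y mice was not a detected difference between genotypes (0.06, -0.09 to 0.20). Without mouse 14, 0 of the 10 genes passed in the quasi-likelihood test, against 0.341% of all genes. At an unadjusted p of 0.05, 4 passed then, against 15.8% of all genes: *Fundc1* (0.23), *Fis1* (0.20), *Bnip3* (0.185) and *Mff* (0.17). Their adjusted p lay between 0.239 and 0.293 in edgeR. The difference of *Mfn1* went from -0.06 to -0.12 and that of *Pink1* from 0.02 to 0.065, and neither passed.

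**Figure D4:**
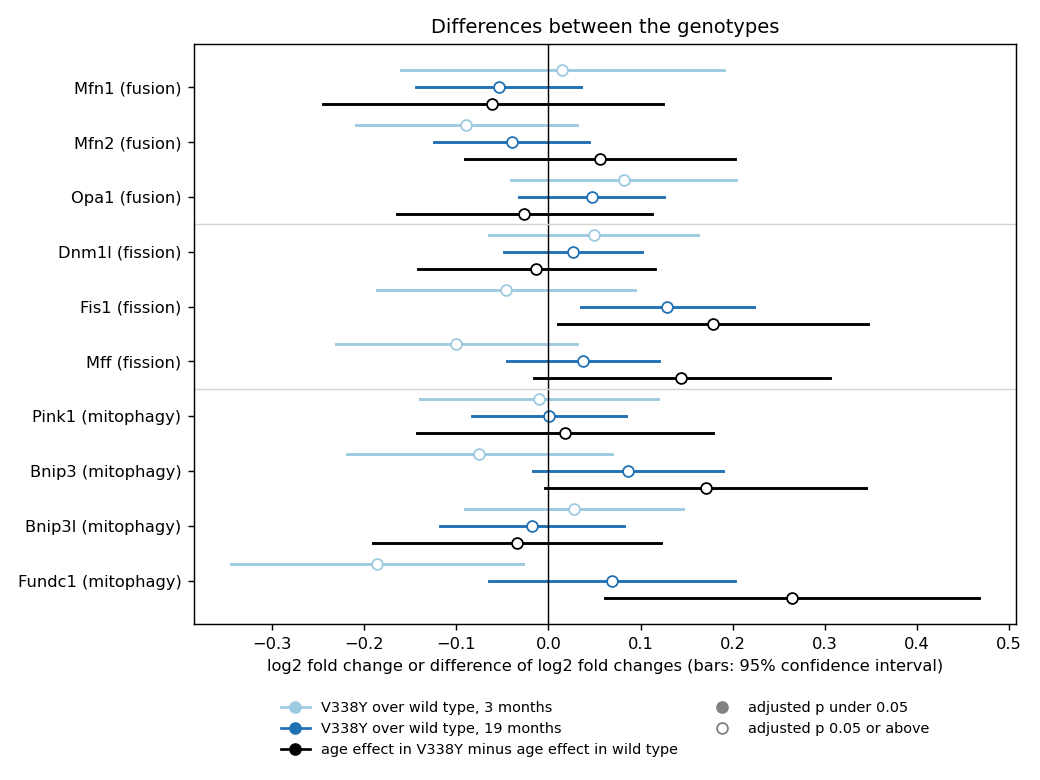
Log2 fold change of V338Y over wild type at 3 and at 19 months and the difference of the age effects (V338Y minus wild type), with 95% confidence intervals. No point is filled, since no adjusted p was under 0.05; the intervals of *Fis1* at 19 months (0.04 to 0.22) and of *Fundc1* at 3 months (-0.34 to -0.03) do not include 0, nor do those of *Fundc1* (0.06 to 0.47) and *Fis1* (0.01 to 0.35) in the difference of the age effects.

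Other genes of the same processes were read from lists of 98 genes, of which 97 were tested in each age comparison. In wild-type mice 22 were higher and 47 lower at 19 months, against 31.4% and 31.5% of all genes. In V338Y mice these were 17 and 37, against 23.1% and 25.7% of all genes. Without mouse 14 they were 18 and 35, against 24.4% and 25.2%. The same shares of all genes stand beside the counts of each list that follow, which are small. With the cerebellum covariate 0 of the 97 passed in wild-type and 33 in V338Y mice, against 0.317% and 27.9% of all genes with that covariate. The V338Y count with the covariate rests on mouse 14. Without mouse 14 no V338Y count of a list moved by more than 2 genes in a direction, and the genes named below that passed in V338Y mice also passed then. List medians of the log2 fold change ran from -0.24 (core autophagy) to 0.26 (transport) in wild-type mice and from -0.24 (fission regulators) to 0.30 (hypoxia-responsive genes) in V338Y mice. Of 12 fission adaptors and regulators tested, 7 were lower and 3 higher in wild-type mice, and 8 and 3 in V338Y mice. *Mtfp1*, an inner-membrane protein that promotes division, fell from 55.6 to 32.7 CPM in wild-type mice (log2 fold change -0.73, adjusted p = 5.41e-11) and by 0.57 on the log2 scale in V338Y mice. *Inf2*, a formin that assembles actin at sites of division, rose from 50.4 to 85.7 CPM (log2 fold change 0.80, adjusted p = 3.54e-13) and by 0.59 in V338Y mice. Of 12 fusion and inner-membrane regulators 7 fell in wild-type and 5 in V338Y mice, and none rose; *Mtch2*, an outer-membrane insertase, fell by 0.47 and 0.50 on the log2 scale.

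Among 12 genes of the *Pink1* pathway and its cargo adaptors, 1 was higher and 6 were lower in wild-type mice, and 1 and 2 in V338Y mice. *Vdac1*, the abundant channel of the outer membrane, fell from 317.4 to 203.5 CPM (log2 fold change -0.60, adjusted p = 1.61e-13) and by 0.45 in V338Y mice. Of 5 other mitophagy receptors 2 fell in each genotype, and 1 in V338Y mice without mouse 14; *Fkbp8*, an LC3-binding outer-membrane protein, fell by 0.35 and 0.26. Of 24 core autophagy genes 2 were higher and 15 lower in wild-type and 0 and 12 in V338Y mice. *Gabarapl2*, an LC3 homologue to which mitophagy receptors bind, fell by 0.71 and 0.70 on the log2 scale, and *Ulk2*, an initiating kinase, rose by 0.22 in wild-type mice.

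*Bnip3* fell while several other hypoxia-responsive genes rose. Of the 15 on that list, 8 were higher and 4 lower at 19 months in wild-type mice, and 8 and 3 in V338Y mice. *Adm*, which encodes the vasodilator adrenomedullin and was near the low end of detection, rose from 1.69 to 5.07 CPM in wild-type mice (log2 fold change 1.71, adjusted p = 7.35e-08) and by 1.78 in V338Y mice. *Higd1a*, a hypoxia-inducible protein of the respiratory chain, fell with *Bnip3*, by 0.71 and 0.64 on the log2 scale. *Slc2a1*, the glucose transporter of the blood-brain barrier, was among those that rose (log2 fold change 1.55 and 1.495), beside the endothelial markers given above; their part in the result was not tested. Of 10 genes of mitochondrial transport 6 were higher and 3 lower in wild-type and 5 and 3 in V338Y mice (5 and 1 without mouse 14), with *Kif5a*, a neuronal kinesin, rising by 0.81 and 0.67 and *Rhot1*, the adaptor Miro1, falling by 0.38 and 0.31. Of 7 regulators of mitochondrial biogenesis 2 rose and 3 fell in wild-type mice, led by *Pprc1* (0.40) and *Esrra* (-0.58), and 0 and 2 in V338Y mice, led by *Tfam* (-0.41).

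Between the genotypes, 2 of the 96 genes tested at 19 months passed, both lower in V338Y mice, against 3.12% of all genes. *Kif5a* was at 2300 CPM in 19m WT and 2038 CPM in 19m V338Y without overlap (log2 fold change -0.20, adjusted p = 0.00429). *Slc2a1* was at 217.2 and 196.6 CPM with overlapping groups (log2 fold change -0.16, adjusted p = 0.036). The count rested on the libraries and the test: it lay between 1 and 3 with a mouse left out, and was 0 by the likelihood-ratio test and 1, *Kif5a*, by DESeq2. With a mouse left out *Kif5a* passed each time (adjusted p between 0.000398 and 0.0323), whereas *Slc2a1* passed only without 19m WT mouse 12 or 19m V338Y mouse 20 (adjusted p = 0.0196 and 0.0022), and reached 0.165 without 19m WT mouse 13. At 3 months and in the interaction, 0 of the 97 genes passed in the quasi-likelihood test, with 4 and 5 at an unadjusted p of 0.05, against 5.02% and 10.2% of all genes. Without mouse 14, 0 passed in either, with 8 and 13 at an unadjusted p of 0.05, against 9.94% and 15.8% of all genes. By the likelihood-ratio test and by DESeq2, 1 gene passed at 3 months and 0 in the interaction. Some cell markers differed between the genotypes at 19 months as well. In V338Y mice 2 of 6 microglia, 2 of 6 meninges and 1 of 6 astrocyte markers were lower. Another 1 of the meninges and 1 of 6 oligodendrocyte markers were higher, and 0 of 6 endothelial and 0 of 7 neuron markers passed. Their part in the values of *Kif5a* and *Slc2a1* was not tested.

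**Figure D5:**
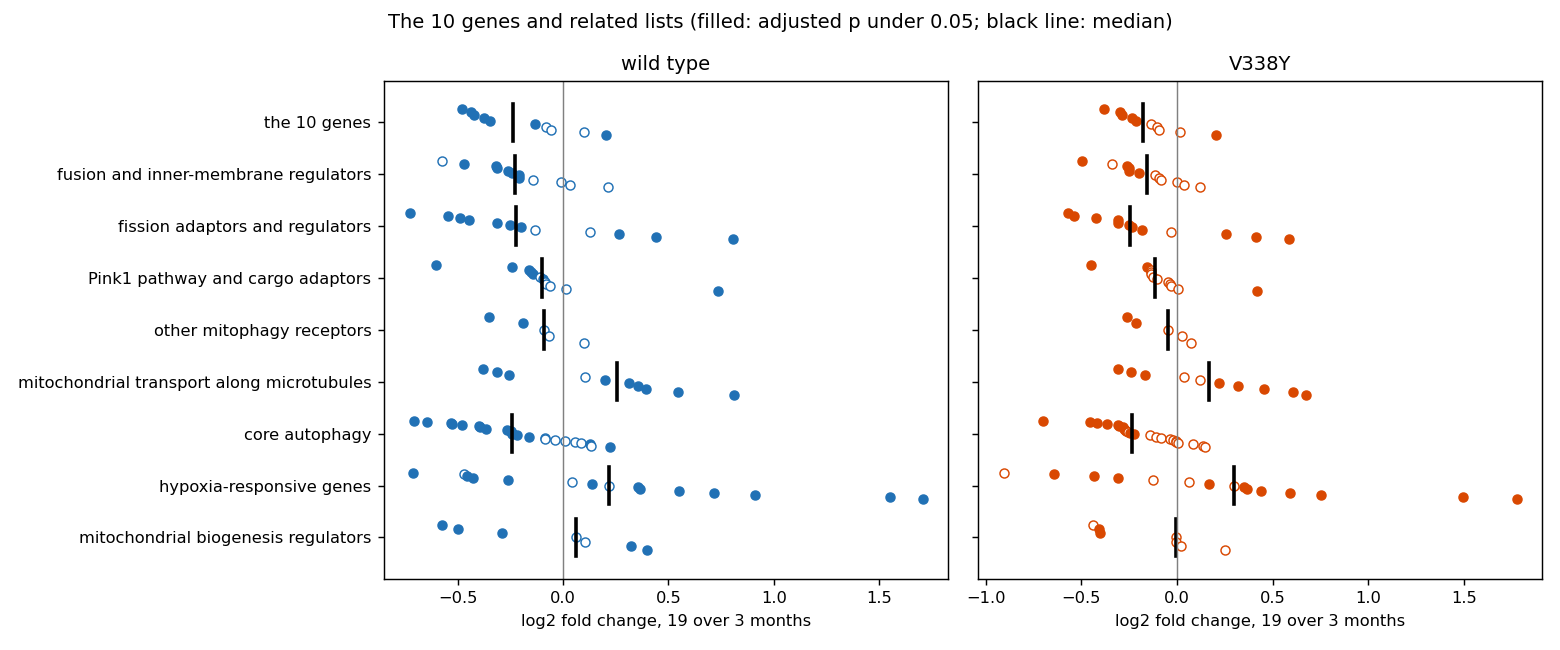
Log2 fold change between 19 and 3 months (horizontal axes) of the 10 genes and of each related list in wild-type and V338Y mice; each point is a gene, filled where the adjusted p was under 0.05, and the black line is the median of the list. Medians of the 10 genes (-0.24 and -0.17), of fission regulators and of core autophagy lie left of 0, and those of transport and hypoxia-responsive genes right of 0, in both panels.

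Genes with the most similar pattern over the 16 mice were sought among 13877 genes with at least 10 counts in every mouse, by Pearson's r of log2 CPM. The highest values were 0.992 (*Fam126b*) and 0.989 (*Pafah1b2*) for *Dnm1l*, 0.991 (*Gnas*) and 0.990 (*Cep19*) for *Mff*, 0.972 (*Dtnbp1*) for *Fis1*, 0.975 (*Matr3*) for *Bnip3*, 0.960 (*Ttc9c*) for *Fundc1* and 0.943 (*Cpe*) for *Pink1*. For the remaining genes they were 0.928 (*Cfap97*) for *Bnip3l*, 0.894 (*Lnpk*) for *Opa1*, 0.888 (*Nt5c3*) for *Mfn2* and 0.859 (*Ppp4r1*) for *Mfn1*. Among the 10 genes themselves, r over the 16 mice was highest for *Dnm1l* with *Bnip3* (0.943) and for *Mff* with *Bnip3* (0.939) and lowest for *Dnm1l* with *Pink1* (-0.721). After each group's mean was removed, r was 0.771, 0.509 and 0.415 for these pairs, so that the opposite direction of *Dnm1l* and *Pink1* was between the ages and not among mice of a group. These values are descriptions, since the 16 points share ages, libraries and sequencing depth.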

How the data were processed

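RNA from 16 mouse samples was sequenced as single-end reads, with a stranded mRNA kit and, per the methods of the study, depletion of ribosomal RNA. The authors deposited expected counts per Ensembl gene, estimated with RSEM and without normalization; the methods name RSEM 1.2.18, Ensembl 75 and the assembly GRCm37, whereas the submitters' processing notes name bcl2fastq 1.8.4, STAR 2.4.2a, featureCounts and GRCm38. The values are whole numbers of at most 4 significant digits, and all 1495 values of 10000 or more end in 0. Groups and mouse numbers come from the sample titles.

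Symbols and positions were matched by Ensembl identifier to GENCODE M21 of GRCm38 (37693 of 39179 identifiers). A gene was kept if 2 or more mice of either group had 10 counts or more. Counts were scaled with TMM and tested with the robust quasi-likelihood test of edgeR 4.0.16 (R 4.3.3, limma 3.58.1) in the 8 mice of a comparison, or in all 16 for the interaction, with Benjamini-Hochberg adjustment over all genes. The SE is the log2 fold change divided by the square root of F. CPM values use TMM factors over all 16 mice, and log2 CPM a prior count of 2. P-values set the difference between groups against the spread between mice of a group. Total counts between 6181448 and 19601664 gave each of the 10 genes 189 counts or more per mouse. No 2 libraries agreed within sampling noise. Transcripts of the 10 genes were compared with all others by blastn 2.17.0. The steps were tested on simulated counts.

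Named besides the 10 genes are, from each related list, the gene with the largest rise and the largest fall in each age comparison among those past the threshold without overlap between groups, any such gene between genotypes, the 2 genes of most similar pattern for each gene, of which 1 or 2 are printed, and *Mrps5*. *Slc2a1* was named after its values were seen, and 1 gene that the rule names is not reported here. The 10 genes and all lists were chosen with earlier results of these data known. Alternatives were edgeR's likelihood-ratio test, DESeq2 1.42.0, RLE size factors, library size only, other filters, one fit of all 16 mice, removal of trends on GC content and length, thinning to the smallest library, a cerebellum marker covariate and leaving out each mouse.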

Additional observations from a re-analysis of the deposited data

Results flagged for a closer look

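In 2 of the 40 groups of 4 mice (10 genes in 4 groups), 1 mouse lay far from the other 3 by Dixon's criterion; chance alone gives about 1 in 20 groups. *Mff* in 3m WT was at 186.1 CPM in mouse 11, with the others between 193.5 and 194.8 CPM (gap over range 0.853). *Bnip3l* in 19m V338Y was at 79.23 CPM in mouse 18, with the others between 87.77 and 89.18 CPM (gap over range 0.859).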

How the results depend on the processing

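In wild-type mice the count of 7 genes that differed between the ages stayed between 6 and 9 under all alternatives except the cerebellum covariate, under which 0 passed; 51 genes passed over the whole table. With that covariate the log2 fold changes turned to -0.552 for *Mfn1*, 0.140 for *Mfn2*, 0.654 for *Opa1*, 0.327 for *Dnm1l*, 0.704 for *Bnip3*, 0.194 for *Bnip3l* and 0.113 for *Fundc1*, none past the threshold. Removal of GC and length trends turned *Mfn1* to -0.010. Between 4 and 8 genes passed in V338Y mice, 4 with the covariate (*Pink1* and *Fundc1* did not), against 27.9% of all genes with it. *Mfn1* there turned to -0.042 with library size only, -0.051 without GC and length trends and -0.018 after thinning, and lay between -0.029 and 0.093 with a mouse left out. The cause of these turns was not tested.

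Between the genotypes 0 of the 10 genes passed under each alternative run. Values near 0 changed sign. At 19 months *Bnip3l* became 0.003 with library size only and 0.013 without GC and length trends, *Pink1* -0.072 without these trends and -0.004 after thinning, and *Dnm1l* -0.001 and *Mff* -0.008 with the covariate; with a mouse left out, *Bnip3l* lay between -0.043 and 0.026 and *Pink1* between -0.030 and 0.037. At 3 months *Mfn1* became -0.003 and *Pink1* 0.022 without GC and length trends, and with a mouse left out they lay between -0.061 and 0.078 and between -0.051 and 0.028. In the interaction *Dnm1l* became 0.001 with library size only and 0.015 without GC and length trends, *Opa1* 0.035 and *Pink1* -0.098 without these trends, and *Opa1* 0.013 after thinning. With a mouse left out, *Mfn1* lay between -0.118 and 0.004, *Opa1* between -0.048 and 0.004, *Dnm1l* between -0.040 and 0.009, *Pink1* between -0.030 and 0.065 and *Bnip3l* between -0.068 and 0.009.

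Over all genes, counts of calls moved by over 1.5 times in V338Y mice with age to 4680 with the covariate (from 8181). At 19 months between genotypes they moved from 512 to 791 without a filter, 116 in one fit of 16 mice, 309 after thinning and 184 with the covariate. At 3 months they moved from 10 to 26 by likelihood-ratio test and by DESeq2, 20 without a filter, 23 in one fit and 5 after thinning. In the interaction they moved from 9 to 35, 43 and 32 by likelihood-ratio test, DESeq2 and no filter, 18 without GC and length trends, 0 after thinning and 106 with the covariate. No paired analysis was possible because the groups compared share at most 1 mouse number and the numbers name different mice.

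With 4 mice a group, differences between genotypes are known only to within the confidence intervals given, and smaller ones were not detectable at this depth and spread. Counts of 10000 or more are rounded to 4 significant digits. Genomic build and counting tool are named differently in the sources. Age, sex markers and cerebellum markers differ together between the ages in both genotypes, apart from 3m V338Y mouse 14 for the cerebellum markers. Markers of endothelial cells, microglia, meninges, red blood cells, astrocytes and oligodendrocytes differ between the ages as well. Values between ages are therefore differences between these libraries with all of these at once.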
